A study of Rattus norvegicus with 6 samples.

Results

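Actb, Actg1, Hprt1, Tbp, Ppia, B2m and Ywhaz are genes that laboratories commonly use as references in quantitative PCR (qPCR), and the study divided its own qPCR values by Actb, the gene of β-actin. The 7 genes were taken by symbol from a table of 18420 genes measured by RNA-seq in rat chondrocytes, by a rule that uses no measured value but was written with earlier results of these data known, and each of them passed the filter on low counts. In these libraries, none of the 7 passed the test between the treatment groups. The level of Actb was nevertheless above that of every TNF-α library in each of the 3 libraries labelled TNF-α+NFL. Its fitted fold change was 1.08 (95% interval 1.02 to 1.14, not adjusted for the number of genes tested). Ppia was below every TNF-α library in each, at 0.906. The groups were likewise apart for Ywhaz, and for 16.8% of all tested genes. Dividing by Actb shifted the fitted log2 fold changes of the other genes down by about the log2 fold change of Actb itself.

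A qPCR value is proportional to the amount of RNA that went into the reaction, so it is divided by the value of a reference gene from the same sample. The ratio is a measure of the target alone only if the reference is at the same level in every sample. β-Actin and γ-actin (Actg1) are the cytoplasmic actins that form the microfilaments of nearly all cells. Hprt1 encodes the purine salvage enzyme hypoxanthine phosphoribosyltransferase, and Ppia encodes cyclophilin A, a prolyl isomerase. Tbp encodes the TATA-binding protein, B2m encodes β2-microglobulin, the light chain of MHC class I molecules, and Ywhaz encodes the zeta member of the 14-3-3 adaptor proteins. In cultured chondrocytes, actin is of particular interest because cells that spread on plastic build stress fibers and express fewer cartilage genes.

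The libraries came from primary chondrocytes of male Sprague-Dawley rats, of wild-type genotype, at passage 3. Cells of the TNF-α group (n = 3) received TNF-α at 10 ng/mL for 6 h, and cells of the TNF-α+NFL group (n = 3) received the same and then Nanofat lysate (NFL), the cleared extract of freeze-thawed Nanofat cells from collagenase-digested fat, for another 24 h. All libraries therefore carry the TNF-α treatment, and since the labels put the harvest of TNF-α cells at 6 h and that of TNF-α+NFL cells at 30 h, NFL and time cannot be told apart. The untreated NC group was not analysed here. The study calls the replicates of a group independent biological replicates and draws the cells of all groups from the same passage, and neither it nor the labels ties them to separate animals, so p-values measure the spread between these samples. Every direction follows the deposited labels, and the study's supplementary list of changed genes places these same groups in the opposite order. Under that order the sign of each difference between the groups would turn.

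The 6 libraries were of nearly equal depth, at 19344893 to 19725135 estimated counts, with TMM scaling factors of 0.988 to 1.006. The defining cartilage genes were low, at 4.47 to 6.12 TPM (a level scaled to transcript length) for Acan and 3.93 to 5.07 TPM for Sox9, while Thy1 and Col1a1, which fibroblasts express, were at 2402 to 2733 and 1123 to 1401 TPM. Of the 15 chondrocyte markers listed, Prg4 and Col11a1 were the 2 above 100 TPM in all libraries. Markers of other cell types were mixed. Ptprc of leukocytes was at most 0.16 TPM, Kdr of endothelium was at 0 in all libraries and Adipoq of adipocytes was at most 0.27 TPM. The highest members of the macrophage, adipocyte and endothelial lists were Cd14 at 58.4 to 68.6, Fabp4 at 30.1 to 35.4 and Egfl7 at 9.80 to 13.6 TPM. TNF-α replicate 1 stood apart in 1 respect that touched all 7 reference genes: each of them had its lowest value of the TNF-α group in that library, as did 37.8% of all tested genes. Results are therefore also given without it. Leaving it out raises the TNF-α mean of each of the 7 genes and so lowers their estimates.

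Promoter sequences were matched for 5 of the 7 genes in RefSeq (build GRCr8), in windows from 250 bases before to 50 bases after the gene start. They were searched on both strands for the CArG box, to which serum response factor binds in actin genes, and for the 10-base NF-κB motif, since TNF-α acts through NF-κB. The CArG box was found in 1.64% of all 33469 promoter windows and, among these 5, in that of Actg1. The NF-κB motif was found in 7.51% of all windows and, among these 5, in that of B2m. Both are shown over the 150 bases before the gene start, 5′ to 3′ on the gene's strand, with the motif in capitals, since the actin and MHC class I genes are described as families here. A match is a run of letters and not a measured binding site, and no binding was measured in these cells.
Actg1 (GRCr8, chr10:106120952-106121101, minus strand): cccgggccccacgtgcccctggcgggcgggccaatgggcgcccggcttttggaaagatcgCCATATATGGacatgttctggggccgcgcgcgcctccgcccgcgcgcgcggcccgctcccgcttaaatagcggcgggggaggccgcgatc
B2m (GRCr8, chr3:129549180-129549329, plus strand): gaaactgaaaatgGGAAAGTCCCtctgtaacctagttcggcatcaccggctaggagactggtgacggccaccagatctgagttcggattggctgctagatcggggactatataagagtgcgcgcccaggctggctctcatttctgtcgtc
The capitals begin 90 bases before the start of Actg1 and 137 bases before that of B2m. The Hprt1, Tbp and Ppia windows held neither motif. Actb and Ywhaz had no matched window and were not searched.

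Per length, the 7 genes spanned a wide range of levels. Actb was the highest at 9399 ± 562 TPM (mean ± SD over the 6 libraries). Ppia at 3268 ± 165 TPM and Actg1 at 3264 ± 93.4 TPM came next, and their ranges over the libraries overlapped, so the order of this pair does not exceed the spread. B2m was at 1435 ± 51.7 TPM, Ywhaz at 463 ± 17.8 TPM and Hprt1 at 133 ± 5.39 TPM. Tbp was the lowest at 15.9 ± 1.22 TPM. Levels that follow are depth-normalized counts (CPM) after TMM scaling, which are compared within a gene only.

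Neither cytoplasmic actin passed the test. Actb (Entrez gene 81822) was at 5666, 5820 and 5708 CPM in TNF-α replicates 1 to 3 and at 5930, 6333 and 6253 CPM in TNF-α+NFL replicates 1 to 3. The groups did not overlap, although TNF-α+NFL replicate 1 lay closer to the highest TNF-α library than to the other libraries of its group. The means were 5731 ± 79.6 and 6172 ± 214 CPM (SD, n = 3 each), a log2 fold change of 0.11 (standard error 0.038, 95% interval 0.025 to 0.19). By edgeR's quasi-likelihood test the unadjusted p was 0.015 and the adjusted p over all genes was 0.29, so Actb did not pass. In bulk RNA, fewer cells of a type and less RNA per cell cannot be told apart, and this holds for every value here. The exact permutation test (two-sided) gave 0.10, the smallest p that 3 libraries against 3 allow.

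Actg1 (Entrez gene 287876) was at 2935, 3161 and 3048 CPM in the TNF-α group and at 3166, 3035 and 3072 CPM in the TNF-α+NFL group. The groups overlapped over most of their range. The log2 fold change was 0.020 (standard error 0.039, 95% interval -0.064 to 0.10, adjusted p = 0.91, edgeR), whose upper bound comes close to the estimate for Actb. The proteins of both actins are close to identical. Both genes had fractional counts in all 6 libraries, which means that reads were divided among several genes, and the files do not name those genes. Their summed level does not depend on how reads were divided between the pair: it was 8601, 8981 and 8756 CPM in the TNF-α group and 9096, 9369 and 9325 CPM in the TNF-α+NFL group, again without overlap (difference of mean log2 values 0.077, exact permutation p = 0.10). The count ratio of Actb to Actg1 was 1.93, 1.84 and 1.87 in the TNF-α group and 1.87, 2.09 and 2.04 in the TNF-α+NFL group. These ratios overlapped (exact permutation p = 0.20).

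**Figure D1:**
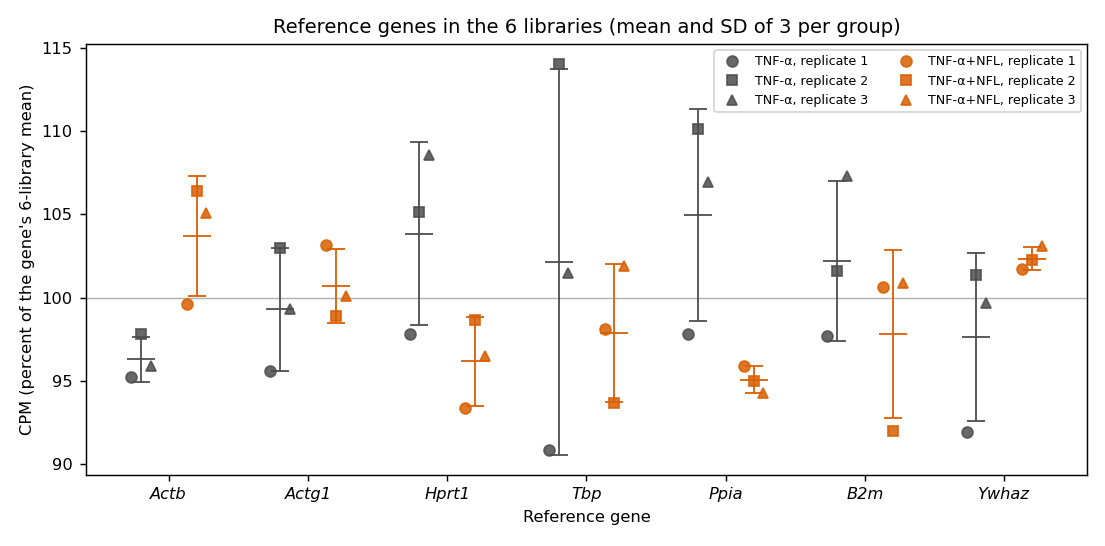
Level of the 7 reference genes in each library, as TMM-scaled CPM in percent of the gene's mean over the 6 libraries. Symbols mark replicates, grey is the TNF-α group and orange the TNF-α+NFL group, and bars give the mean and SD of 3 libraries. Actb and Ywhaz lie higher in all TNF-α+NFL libraries, Ppia lies lower in all of them, and grey circles (TNF-α replicate 1) are the lowest of their group for every gene.

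Ppia and Hprt1, both enzymes, had estimates below 0. Ppia (Entrez gene 25518) was at 1167, 1313 and 1275 CPM in the TNF-α group and at 1144, 1133 and 1124 CPM in the TNF-α+NFL group. The groups did not overlap, but TNF-α replicate 1 was nearer to the TNF-α+NFL libraries than to its own group. Its estimate was -0.14 on the log2 scale (standard error 0.044, 95% interval -0.24 to -0.047), the largest in size among the 7. It did not pass (adjusted p = 0.22, edgeR), with an exact permutation p of 0.10. The spread of Ppia was unequal, with a coefficient of variation (CV) of 6.08% among the TNF-α libraries and 0.856% among the TNF-α+NFL libraries.

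Hprt1 (Entrez gene 24465) was at 80.3, 86.3 and 89.1 CPM in the TNF-α group and at 76.6, 81.0 and 79.2 CPM in the TNF-α+NFL group. The groups overlapped only through TNF-α replicate 1, which lay among the TNF-α+NFL libraries. The log2 fold change was -0.11 (standard error 0.048, 95% interval -0.22 to -0.0065, adjusted p = 0.41, edgeR). Ppia and Hprt1 also had fractional counts in all 6 libraries, as had 25.2% of tested genes. Reads shared with other genes, which are not named, make both values uncertain.

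The adaptor, MHC light chain and transcription factor genes followed. Ywhaz (Entrez gene 25578) was at 530, 585 and 575 CPM in the TNF-α group and at 587, 590 and 595 CPM in the TNF-α+NFL group, with whole counts throughout. The 3 TNF-α+NFL libraries were close together and just above the highest TNF-α library, and the low TNF-α mean came mainly from replicate 1 (log2 fold change 0.068, standard error 0.042, adjusted p = 0.61, edgeR). B2m (Entrez gene 24223), also with whole counts, was at 1298, 1350 and 1426 CPM in the TNF-α group and at 1337, 1222 and 1340 CPM in the TNF-α+NFL libraries (log2 fold change -0.063, standard error 0.047, adjusted p = 0.68, edgeR). Its groups overlapped, and the library farthest from the others was TNF-α+NFL replicate 2. Tbp (Entrez gene 117526) was at 14.8, 18.5 and 16.5 CPM in the TNF-α group and at 15.9, 15.2 and 16.5 CPM in the TNF-α+NFL group. Its counts were fractional in 3 libraries. All TNF-α+NFL values of Tbp lay within the TNF-α range (log2 fold change -0.062, standard error 0.086, adjusted p = 0.86, edgeR).

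In total, 0 of the 7 reference genes passed an adjusted p of 0.05 in edgeR's quasi-likelihood test, where 0.611% of all tested genes did. At an unadjusted p under 0.05 there were 3 of 7 (Actb, Hprt1 and Ppia) against 11.1% of tested genes, and the groups did not overlap for 3 of 7 (Actb, Ppia and Ywhaz) against 16.8%. Without TNF-α replicate 1, 3 of the 7 passed, where 6.94% of all genes did: Actb at a log2 fold change of 0.099 (adjusted p = 0.049), Hprt1 at -0.15 (adjusted p = 0.035) and Ppia at -0.19 (adjusted p = 0.00019). Leaving out any other library left 0 of 7. Since replicate 1 was the lowest TNF-α library for all 7, each estimate is lower without it by construction.

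**Figure D2:**
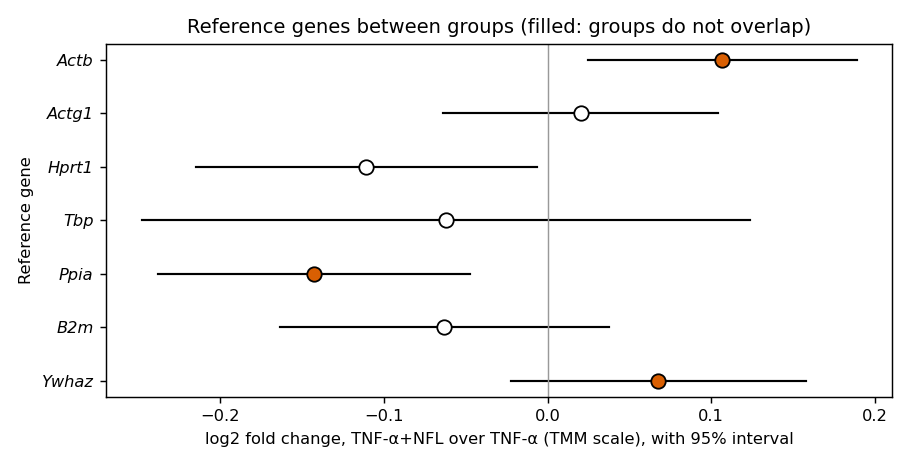
Log2 fold change of each reference gene, TNF-α+NFL over TNF-α, on the TMM scale, with its 95% interval from edgeR (n = 3 per group). Points are filled where the groups do not overlap. The interval excludes 0 before adjustment for Actb (0.11), Hprt1 (-0.11) and Ppia (-0.14), and Tbp has the widest interval.

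Stability over all 6 libraries was described by the CV of CPM. Actg1 was the most stable at 2.82%, followed by Ywhaz at 4.12%, Actb at 4.73%, B2m at 5.03%, Hprt1 at 5.70%, Ppia at 6.77% and Tbp at 8.12%. The median CV was 6.56% over all tested genes and 4.15% over the 3898 genes with a mean of at least 50 CPM and a count in every library. Of the 7 genes, 5 were below the first median and 2, Actg1 and Ywhaz, below the second. Counting error alone would give Tbp a CV of 5.61% at its 282 to 366 counts, whereas it would give Actb 0.293%. Without TNF-α replicate 2 the CV of Tbp was 4.97%, and without TNF-α replicate 1 that of Ywhaz was 1.24%. Within the TNF-α group alone, Actb had the smallest CV of the 7, at 1.39%. Within the TNF-α+NFL group it was at 3.46%, and Ywhaz had the smallest at 0.689%.

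Ratios between references remove any error in the size of a library. Of the 21 pairs, 9 had ratios that did not overlap between the groups. Of all tested genes, 31.5% had a ratio to Actb that did not overlap, and with the other references this share ran from 5.83% for Tbp to 32.3% for Ppia. The pair of Actb and Ppia differed most, by 0.25 on the log2 scale between the groups, and Actb and Hprt1 differed by 0.22 (exact permutation p = 0.10 for each). Ppia relative to Ywhaz differed by -0.21, also without overlap. The ratios with the smallest standard deviation over the libraries were Actg1 to Ywhaz at 0.041 and Hprt1 to Ppia at 0.046 on the log2 scale, both with overlapping groups. Each of the 9 pairs set Actb, Actg1 or Ywhaz against Hprt1, Tbp, Ppia or B2m, with the former relatively higher in the TNF-α+NFL group. The other 3 pairs of that kind overlapped, as did all 9 pairs within either set. The sets are the genes with estimates above and below 0 on the TMM scale, so this direction follows from those estimates. Relative to each of the other 6 genes, the mean log2 ratio of Actb was higher in the TNF-α+NFL group, by 0.038 for Ywhaz at the least.

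The geNorm measure M, the mean standard deviation of a gene's log2 ratios to the other references, ranks genes from the most to the least stable within a panel. Actb had the highest M of the 7, at 0.11, and Actg1 the lowest, at 0.077. Without TNF-α replicate 3 or TNF-α+NFL replicate 2, Tbp had the highest, at 0.11 and 0.10, and Actg1 was the lowest in each of the 6 panels with 1 library left out. Removing the least stable gene step by step took out Actb, Tbp, Ywhaz, Actg1 and B2m in that order and left Hprt1 with Ppia at an M of 0.046. Both genes of that pair had negative log2 fold changes on the TMM scale, so a steady ratio between them does not show a steady level. Within the TNF-α group the highest M was that of Tbp, at 0.12, and within the TNF-α+NFL group that of B2m, at 0.078, so Actb was the least stable in neither group alone. The geometric mean of all 7 was at 553, 607 and 596 CPM in the TNF-α group and at 574, 569 and 582 CPM in the TNF-α+NFL group, with overlap (difference of mean log2 values -0.025, exact permutation p = 0.60).

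To see what a reference would do to the rest of the transcriptome, all 13250 tested genes were refitted with each library scaled to equal Actb, as dividing by Actb does in qPCR. On the TMM scale, 54 genes were higher and 27 lower in the TNF-α+NFL group at an adjusted p under 0.05. On the Actb scale 36 were higher and 920 lower, 7.22% of tested genes in all. The median log2 fold change of all genes moved from -0.0035 to -0.11, a shift of the size of the log2 fold change of Actb itself, and the share of genes above 0 moved from 48.2% to 16.0%. The fit takes the scale as known, so the replicate error of Actb itself is not in these counts of calls except as added spread.

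**Figure D3:**
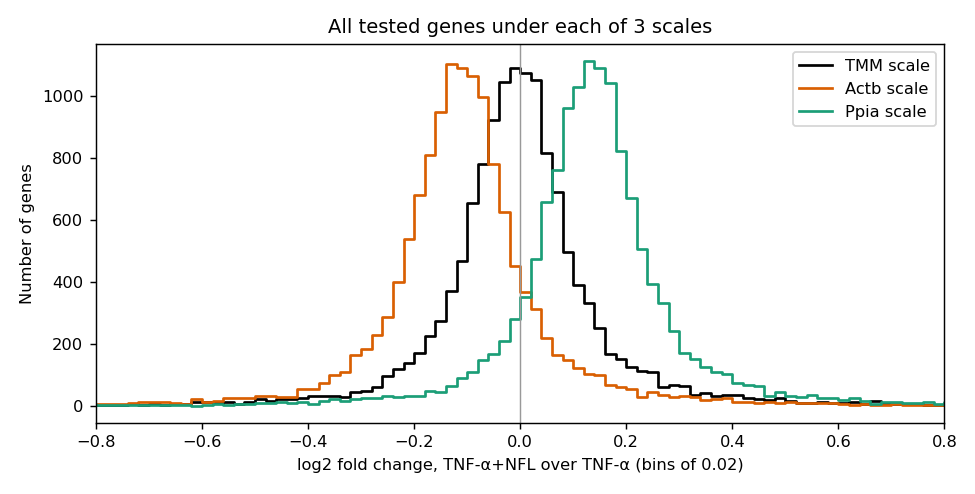
Number of genes (y axis) by log2 fold change, TNF-α+NFL over TNF-α (x axis, bins of 0.02, cut at -0.8 and 0.8), for all 13250 tested genes on 3 scales. The median lies at -0.0035 on the TMM scale, at -0.11 with Actb as the reference and at 0.14 with Ppia.

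Of the 81 genes called on the TMM scale, 57 were also called with Actb as the reference in the same direction, 30 of the 54 higher and all 27 lower. The 24 lost genes were all higher ones. In the other direction, 899 genes were called with Actb only, 893 of them lower. The median log2 fold change of the 920 lower genes was -0.14 on the TMM scale, 0 of them had one above 0, and 652 had an unadjusted p under 0.05 there. The lower calls on the Actb scale were thus drawn from genes already at or below 0, and no called gene changed sign between the scales.

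Genes named by their adjusted p show the size of the shift. Pdlim5, which encodes a PDZ and LIM domain protein, was at 383 ± 6.34 CPM in the TNF-α group and 446 ± 9.82 CPM in the TNF-α+NFL group and was higher on the TMM scale (log2 fold change 0.22, adjusted p = 0.018, edgeR). Relative to Actb its log2 fold change was 0.11 with an adjusted p of 0.16. Tgfb2 (a TGF-β ligand), Nedd9 and RGD1559896 were lost in the same way, from 0.22 to 0.23 on the TMM scale to 0.11 to 0.13 on the Actb scale. Gstp1, a glutathione transferase, was at 432 ± 31.7 and 368 ± 16.7 CPM and was called with Actb as the reference only (log2 fold change -0.34, adjusted p = 0.00086, against -0.23 and 0.088 on the TMM scale). The chemokine gene Cxcl3, LOC108348061 and LOC100360508 were called in the same way, at -0.44 to -0.32 on the Actb scale. Of the 6 genes called higher with Actb only, the 5 named by the rule were low, with LOC100910121, St6galnac3, Sept4, Dcdc2 and Col4a3 at means of at most 6.54 CPM in either group.

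The number of calls depended strongly on single libraries on both scales. On the TMM scale it ran from 5 higher and 0 lower without TNF-α+NFL replicate 1 to 460 and 470 without TNF-α replicate 1. With Actb as the reference it was 119 higher and 1837 lower without TNF-α replicate 1, without TNF-α replicate 2 it was 8 and 291, and without TNF-α replicate 3 it was 36 and 538. Without TNF-α+NFL replicates 1, 2 and 3 it was 13 and 921, 4 and 48, and 17 and 235. With Actb, lower calls outnumbered higher ones in each of these fits, and the median log2 fold change of all genes on the Actb scale lay between -0.14 and -0.093.

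With each other single reference, the median log2 fold change of all genes lay on the side of 0 opposite to that reference's own estimate. The number of calls did not follow the estimate alone, since Tbp (-0.062) and B2m (-0.063) gave 15 and 33 in all. Scaling to Ppia gave 239 higher and 3 lower genes, 1.83% of those tested, with a median log2 fold change of all genes of 0.14. Scaling to Hprt1 gave 154 and 3 (1.18%, median 0.10). Ywhaz, with an estimate above 0 like that of Actb, gave 2 and 20 (0.166%, median -0.074). Actg1 gave 14 and 12 (0.196%, median -0.025), Tbp 11 and 4 (0.113%, median 0.049) and B2m 30 and 3 (0.249%, median 0.059). The geometric mean of all 7 gave 9 and 3 (0.0906%, median 0.020). The summed count of both actins, a scale added after the data had been seen, gave 27 and 324 (2.65%, median -0.081). With the total count the calls were 57 and 19 (0.574%), and with DESeq2's size factors, which also use all genes, they were 59 and 27 (0.649%). These fits were not repeated with a library left out, except for TMM and Actb.

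**Figure D4:**
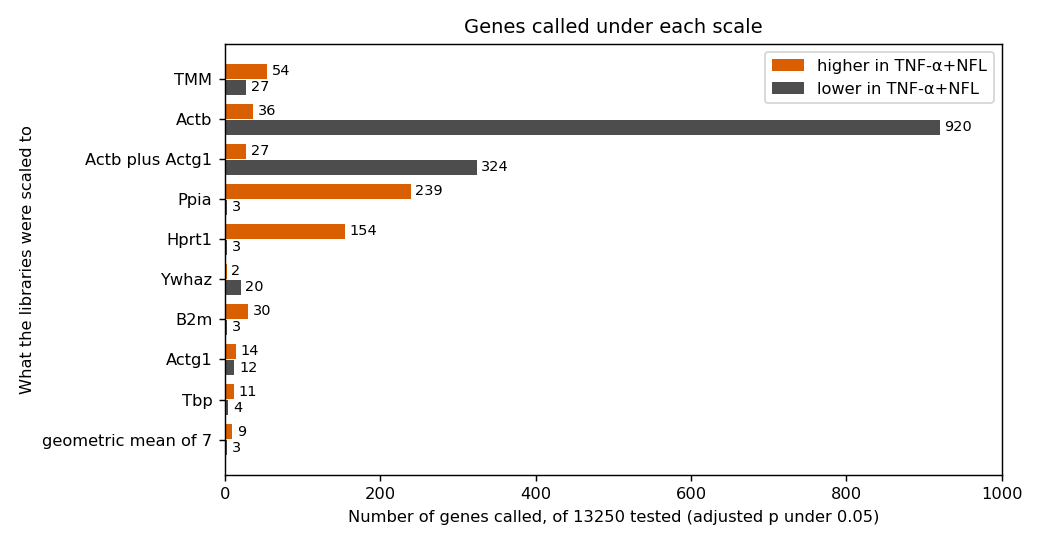
Number of the 13250 tested genes called higher (orange) or lower (grey) in the TNF-α+NFL group at an adjusted p under 0.05 (edgeR) when libraries are scaled by TMM or to the reference named on the y axis. Actb gives 920 lower calls, Ppia and Hprt1 give 239 and 154 higher calls, and Actg1, Tbp, B2m, Ywhaz and the geometric mean of 7 give 12 to 33 in all.

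A reference also adds its own replicate noise to each target. Among the 3898 genes of at least 50 CPM, the median within-group SD of log2 values was 0.053 on the TMM scale and 0.066 after division by Actb, and the SD was larger after the division for 83.5% of them. Division by Tbp, the least abundant reference, raised the median SD to 0.13 and enlarged it for 94.0%. Actg1 enlarged it for 72.5% and the geometric mean of 7 for 71.5%, with median SDs of 0.066 and 0.068 that were no lower than that with Actb. TMM factors are computed from these same genes, so a larger SD than on the TMM scale is in part built into the comparison.

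The references can also be read against each other as if they were targets. With Actb as the scale, 2 of the 7 genes passed: Ppia at a log2 fold change of -0.25 (adjusted p = 0.0077, edgeR) and Hprt1 at -0.22 (adjusted p = 0.024), where 6.94% of all genes were called lower. Actb itself is held at 0 by this scale and could not pass. Neither Ppia nor Hprt1 passed on the TMM scale. With 1 library left out, 3 of the 7 were called lower with Actb as the scale without TNF-α replicate 1, 1 without TNF-α replicate 3, 2 without TNF-α+NFL replicate 1, and 0 in the other 3 fits.

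The targets that were measured by qPCR against Actb were put through the same division with their RNA-seq counts, for 9 genes. These ratios are not the qPCR values, which were not analysed here. Il1b had 0 to 1 count and Mmp1 0 to 3.44 counts in a library, which is too few to test. Mmp13, the collagenase 3 gene, had 6512, 7021 and 6182 counts in the TNF-α group and 5477, 5054 and 5450 in the TNF-α+NFL group. It was lower on both scales, at -0.31 on the log2 scale by TMM (standard error 0.050, adjusted p = 0.017, edgeR) and at -0.41 relative to Actb (adjusted p = 0.00011). On the TMM scale it passed in 1 of the 6 fits that left out 1 library, that without TNF-α replicate 3, with adjusted p of 0.0077 to 0.18 over these fits.

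Tgfbr2, the type II TGF-β receptor gene, had overlapping groups in CPM and separate groups relative to Actb. Its counts were 7325, 7023 and 7120 in the TNF-α group and 7082, 7180 and 7081 in the TNF-α+NFL group. On the TMM scale the groups overlapped with a log2 fold change of -0.012 (adjusted p = 0.95, edgeR; exact permutation p = 1). Relative to Actb, all 3 TNF-α+NFL libraries lay below all 3 TNF-α libraries, with a log2 fold change of -0.12 that did not pass (adjusted p = 0.16, edgeR; exact permutation p = 0.10). For Adamts5, an aggrecanase gene, counts were 2685, 2211 and 2120 in the TNF-α group and 2041, 2126 and 2098 in the TNF-α+NFL group. The groups overlapped in CPM (log2 fold change -0.17) and were apart relative to Actb (-0.28, adjusted p = 0.14, edgeR), as were 31.5% of all tested genes. Without TNF-α replicate 1 the difference of mean log2 ratios to Actb was -0.076 for Tgfbr2, against -0.12 with all libraries, and -0.14 for Adamts5, against -0.27.

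The cartilage genes had lower estimates with Actb as the reference than on the TMM scale. Col2a1, type II collagen, had 381, 353 and 399 counts in the TNF-α group and 413, 452 and 466 in the TNF-α+NFL group. Its groups were apart on both scales without passing, with a log2 fold change of 0.23 (adjusted p = 0.22, edgeR) on the TMM scale and 0.12 (adjusted p = 0.31) relative to Actb. Without TNF-α replicate 2 the difference of its mean log2 ratios to Actb was 0.056. Acan, the aggrecan gene, was at 0.090 and -0.019, Sox9, the chondrocyte transcription factor, at 0.049 and -0.059, and Il6, an inflammatory cytokine gene, at 0.061 and -0.046. The groups of these 3 genes overlapped on both scales, so the change of sign lies within the replicate spread.

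**Figure D5:**
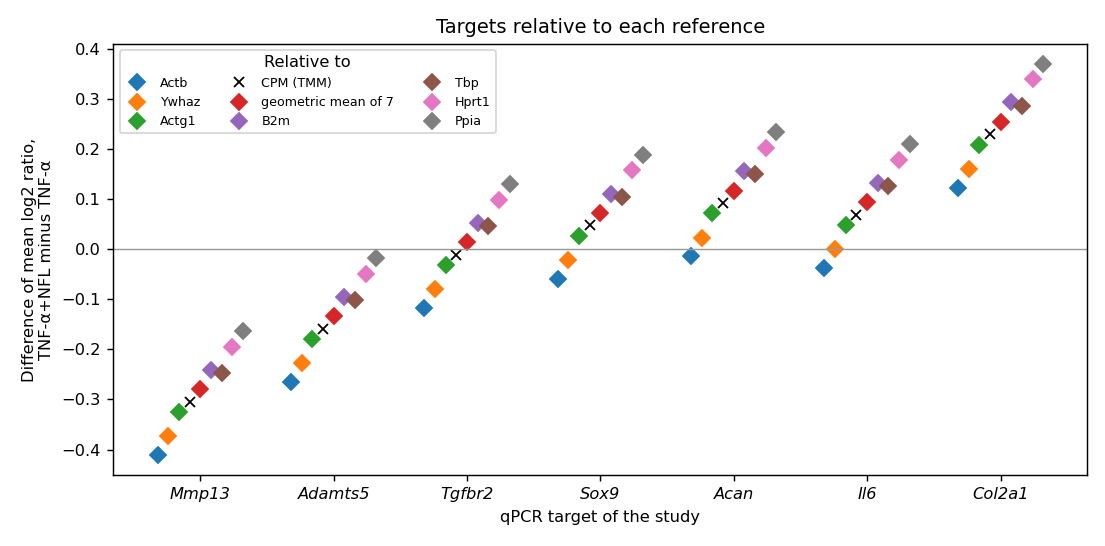
Difference of the mean log2 ratio between the groups, TNF-α+NFL minus TNF-α, for 7 qPCR targets relative to each reference (diamonds) or as TMM-scaled CPM (crosses). Within each gene the values run from Actb at the bottom to Ppia at the top, a range of 0.25, and those of Tgfbr2, Sox9, Acan and Il6 lie on both sides of 0.

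Over the 7 single references, the difference of the mean log2 ratio ran from -0.41 to -0.16 for Mmp13, from -0.27 to -0.018 for Adamts5, from -0.12 to 0.13 for Tgfbr2, from -0.059 to 0.19 for Sox9, from -0.014 to 0.23 for Acan, from -0.037 to 0.21 for Il6 and from 0.12 to 0.37 for Col2a1. The lowest value came with Actb and the highest with Ppia in every case, as dividing by a reference subtracts the same amount from each target. Mmp13 was below 0 with all 7 references, with its groups apart with 5. Col2a1 was above 0 with all 7, with its groups apart with 4. Acan and Sox9 had overlapping groups with each of the 7.

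The relatives of each reference were described as gene lists. In the actin family, 10 of 12 genes were tested, and 1 was higher and 0 lower at an adjusted p under 0.05 on the TMM scale (median log2 fold change 0.035). Of all tested genes, 0.408% were called higher and 0.204% lower, with a median of -0.0035. The higher one was Acta2, smooth muscle actin, at 2090.1 ± 109 CPM in the TNF-α group and 2542 ± 64.2 CPM in the TNF-α+NFL libraries (log2 fold change 0.28, adjusted p = 0.010, edgeR). Relative to Actb it was at 0.18 (adjusted p = 0.046), and it no longer passed whichever of the 6 libraries was omitted. Actr2 and Actr3, subunits of the Arp2/3 complex that branches filaments, were at 0.029 and 0.040 and did not pass. Among 40 tested partners of actin filaments 2 were higher and 0 lower (median 0.036), and 26 had estimates above 0. Vinculin (Vcl), which links filaments to adhesions, was at 692 ± 19.2 and 798 ± 7.71 CPM (log2 fold change 0.20, adjusted p = 0.024), and Tpm2, a tropomyosin, was at 449 ± 30.6 and 533 ± 12.5 CPM (0.25, adjusted p = 0.036). Actn4 (0.17) and Tpm1 (0.15) did not pass. Relative to Actb, Vcl was at 0.098 and Tpm2 at 0.14, and neither passed. On the TMM scale, of the fits that left out 1 library, Acta2 and Tpm2 passed without TNF-α replicate 1 or 3, and Vcl passed without TNF-α replicate 1 only. Without TNF-α replicate 1, 7 partners were higher and 2 lower, where 3.43% and 3.51% of all genes were.

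Of the 37 other genes that serve as references, 36 were in the table and tested, and 0 were higher and 1 lower, with 27 estimates below 0 (median log2 fold change -0.060, against -0.0035 for all genes). The lower one was Pgk1, a glycolytic enzyme, at 886 ± 35.5 CPM in the TNF-α group and 775 ± 6.86 CPM in the TNF-α+NFL group (-0.19, adjusted p = 0.041, edgeR). Gapdh, a glycolytic enzyme gene widely used as a reference, was at 4670 ± 258 and 4101 ± 18.5 CPM (-0.19, adjusted p = 0.076) and did not pass. Rps18 was at -0.18 and Psmb4, a proteasome subunit, at -0.17. Of the 36, 28 had a log2 fold change smaller in size than that of Actb and 16 had a smaller CV, as did 8965 and 3993 of all 13250 tested genes. With Actb as the scale, 13 of the 36 were called lower, where 6.94% of all tested genes were. With a library left out, there were from 2 (without TNF-α+NFL replicate 2, where 48 of all genes were called lower) to 23 (without TNF-α replicate 1, where 1837 were). On the TMM scale 12 were lower without TNF-α replicate 1, Pgk1 and Gapdh among them, where 3.51% of all genes were lower, and in the other 5 fits that left out 1 library there were 0.

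Among the relatives of the enzymes, 16 cyclophilins were tested with 0 called in either direction on the TMM scale (median log2 fold change -0.037), and 18 genes of purine salvage and synthesis with 0 called (median -0.054). Ppig was at 0.12 and Ppil2 at -0.073, on either side of 0. Aprt, the adenine counterpart of Hprt1, was at 106 ± 3.67 CPM in the TNF-α group and 92.8 ± 3.73 CPM in the TNF-α+NFL group, without overlap (-0.19, adjusted p = 0.10, edgeR). Of the purine genes 14 had estimates below 0. With TNF-α replicate 1 left out, 4 purine genes were lower (Hprt1, Aprt, Paics and Prps1), and of the cyclophilins Ppia was lower and Ranbp2 higher, where 3.51% of all genes were lower and 3.43% higher.

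For the other references, TFIID and related genes (22 tested, median -0.014) had 0 higher and 1 lower. That gene, Taf10, a TBP-associated factor, was at 69.9 ± 3.24 CPM in the TNF-α group and 59.5 ± 0.201 CPM in the TNF-α+NFL group (-0.23, adjusted p = 0.040, edgeR), and of the fits that left out 1 library it passed only without TNF-α replicate 1. Taf2, another such factor, was at 0.11 and did not pass. Genes of MHC class I and peptide loading (26 tested) had 0 called on the TMM scale, with 21 estimates below 0 (median -0.067). Tapbp, which encodes the loading factor tapasin, was at -0.15 and RT1-CE10, a class I heavy chain gene, at -0.12. With Actb as the scale, 9 of these 26 genes were called lower, where 6.94% of all tested genes were, and from 0 (without TNF-α+NFL replicate 2) to 14 (without TNF-α replicate 1) with a library left out. The 14-3-3 genes (7 tested, median 0.029) had 0 called on either scale, with 6 estimates above 0, Ywhag at 0.061 among them. On the Actb scale each of these medians lies lower by about 0.11, so those above 0, of the actin family, the filament partners and the 14-3-3 genes, turn negative.

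The genes closest to Actb in pattern, among those of at least 50 CPM, were those with the smallest standard deviation of the log2 ratio over the 6 libraries. They were Ddx3, an RNA helicase gene (0.014), Gpbp1l1 (0.020), Vasp, which promotes filament elongation (0.022), Taf2 (0.023) and Fstl1, a secreted glycoprotein gene (0.023). Fstl1 was at 2216 ± 31.0 CPM in the TNF-α group and 2408 ± 51.0 CPM in the TNF-α+NFL group. Closest to Actg1 were Cant1 (0.0083), Ncl, which encodes nucleolin (0.014), Hspd1, a mitochondrial chaperonin (0.014), Ppp2r5e, a phosphatase subunit (0.015), and the tropomyosin gene Tpm3 (0.015). These were chosen from 3898 genes for this likeness, so no test applies.

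By the same kind of choice, the most stable genes of at least 50 CPM were Ints3, an Integrator subunit (CV 0.522%), Dnajb6, a co-chaperone (0.535%), Ap2a2, a clathrin adaptor subunit (0.585%), and Prkcsh and Ganab, the subunits of glucosidase II (0.599% and 0.607%). Ganab was at 407 ± 1.98 CPM in the TNF-α group and 409 ± 2.92 CPM in the TNF-α+NFL group. The groups of Ap2a2 did not overlap at 337 ± 1.17 and 340 ± 1.85 CPM, a log2 fold change of 0.011, so a lack of overlap says little about size when replicates lie this close. Actb, at a CV of 4.73%, was more variable than 60.7% of the genes of at least 50 CPM, and Actg1, at 2.82%, than 21.1% of them.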

How the data were processed

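RNA-seq of poly(A) RNA from 6 libraries was used as deposited: 3 of the TNF-α group and 3 of the TNF-α+NFL group, grouped by the treatment in the labels. For each gene the authors deposited an estimated count, not normalized and not always whole, FPKM values (per transcript length and mapped reads) and TPM values (per transcript length, with the same sum in each library). The submitters' processing notes name HISAT2 2.0.4, Bowtie2 2.2.5, RSEM 1.2.12 and the build Rnor_6.0, and annotation and test are not given in the sources used here. RSEM divides reads between near-identical copies, and 27.3% to 28.0% of genes in a library had fractional counts.

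Counts were rounded and tested over 13250 genes in R 4.3.3 by edgeR 4.0.16: filterByExpr, TMM normalization, a two-sided quasi-likelihood test with robust fitting, and Benjamini-Hochberg adjustment over all genes tested, with the common biological coefficient of variation at 6.39%. The script was tested on simulated counts. To scale to a reference, library sizes were made proportional to that gene's estimated count. For targets, the log2 ratio to a reference was compared by exact permutation (smallest two-sided p 0.10). Promoter windows are from RefSeq, GRCr8.

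Named are the 7 genes, the qPCR targets, the 5 genes of at least 50 CPM closest to Actb and to Actg1 or smallest in CV, in each direction the 5 genes of smallest adjusted p that are called on either the TMM or the Actb scale alone, and list members that passed or, at 50 CPM or more, are the 4 largest in size. Some genes that this rule names are not reported here. The genes and lists were chosen with earlier results of these data known. Alternatives were other filters, thresholds and scalings, DESeq2 1.42.0, limma 3.58.1 on log2(FPKM + 1) and log2(TPM + 1), the replicate number as a block, and leaving out each library.

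Of the marker lists, 0 genes passed among 13 tested chondrocyte, 8 fibroblast, 2 macrophage, 5 adipocyte and 2 endothelial markers, and 0 blood markers could be tested. Without TNF-α replicate 1, Col11a1, Col1a1 and Postn were higher and Lum and Cd14 lower.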

Additional observations from a re-analysis of the deposited data

How the results depend on the processing

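Without TNF-α replicate 1, Actb, Hprt1 and Ppia passed, so that 0 to 3 of the 7 reference genes were called over the 6 fits that left out 1 library; every other alternative run gave 0 (DESeq2 gave no adjusted p for Tbp). At an unadjusted p under 0.05, 3 of the 7 genes were found. Over these 6 fits the log2 fold change of Actb ran from 0.089 to 0.14, that of Hprt1 from -0.15 to -0.076, that of Ppia from -0.19 to -0.10, that of B2m from -0.094 to -0.020 (without TNF-α+NFL replicate 2) and that of Ywhaz from 0.026 (without TNF-α replicate 1) to 0.099. That of Actg1 ran from -0.0058 to 0.051 and that of Tbp from -0.14 to 0.028, so both changed sign. The coefficient of variation was 4.97% for Tbp without TNF-α replicate 2 and 1.24% for Ywhaz without TNF-α replicate 1. The direction of Actb, Hprt1, Ppia, B2m and Ywhaz was the same in each alternative run.

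The higher and lower calls with Actb as the scale, 36 and 920, were 7 and 160 at an adjusted p under 0.01, and 9 and 3 with the geometric mean of 7 as the scale. With no filter there were 64 higher calls, and with the summed actins, added after seeing the data, 324 lower calls. With the replicate number as a block they were 19 and 375. Whether the numbers pair the samples could not be decided. Deviations of same-numbered samples correlated at -0.18, 0.012 and 0.079, within the range of -0.31 to 0.34 over differently numbered ones. Leaving out 1 library gave 4 to 119 higher and 48 to 1837 lower calls. The cause was not tested.

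Of the targets, Col2a1, Mmp13 and Adamts5 had the same direction in each alternative, but leaving out 1 library gave Col2a1 from 0.056 to 0.16, Mmp13 from -0.46 to -0.36, Adamts5 from -0.34 to -0.14 and Tgfbr2 from -0.15 to -0.076. With Actg1, Hprt1, Tbp, Ppia, B2m and the geometric mean in place of Actb, Sox9 was at 0.027, 0.16, 0.10, 0.19, 0.11 and 0.073, Acan at 0.071, 0.20, 0.15, 0.23, 0.16 and 0.12, and Il6 at 0.049, 0.18, 0.13, 0.21, 0.13 and 0.094. With Ywhaz, Acan was at 0.023 and Il6 at 0.00027. Tgfbr2 was at 0.099 with Hprt1, 0.046 with Tbp, 0.13 with Ppia, 0.052 with B2m and 0.014 with the geometric mean. Leaving out 1 library gave Sox9 from -0.12 to 0.034, Acan from -0.090 to 0.089 and Il6 from -0.098 to 0.070.

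Precision is limited by 3 libraries per group, where a permutation p cannot go below 0.10, and by counting error for Tbp. The division of reads among several genes limits it for the actins, Ppia and Hprt1, and for Tbp in 3 libraries. Calls on a single-gene scale treat that scale as known.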
